A study of Xenopus laevis with 6 samples.

Results

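The Sox family of transcription factors was compared between Xenobots and whole frog embryos of the same age. Its members were taken as every row of the gene count table whose symbol begins with sox followed by a digit, and 34 of the 42638 rows met this rule. A Xenobot forms when ectoderm of the animal cap is cut from a Xenopus laevis embryo and left to heal into a motile body covered with cilia. The 3 Xenobot pools held 50 Xenobots each, made from wild-type ectoderm explanted at stage 9, grown in 0.75X MMR (Marc's Modified Ringer's, a salt solution) at 14 °C and collected on day 7. The 3 embryo pools held 10 intact wild-type siblings each, kept at 14 °C in 0.1X MMR for the same 7 days, by which they had reached stage 35. Explanting and the saltier medium came together in the Xenobots, so that their parts in any difference cannot be told apart in these pools. In a separate comparison of whole embryos raised in either medium, the authors reported minimal changes of the transcriptome. The pool was the replicate (n = 3 per group), and since separate clutches are not named for the pools, p-values measure only the spread between these pools.

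Sox proteins share an HMG box, a domain that binds and bends DNA, and most act with a partner factor that sets which genes they control. The SoxB1 proteins keep neural progenitors undifferentiated, the SoxE proteins serve the neural crest, its glia and pigment cells and cartilage, and the SoxF proteins serve endoderm, blood vessels and heart. SoxC proteins act in neuronal differentiation and in progenitor survival, while SoxD proteins carry no activation domain of their own and work with Sox9 in cartilage. X. laevis is allotetraploid, so most genes have a homeolog on each of 2 subgenomes, named .L and .S.

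Total estimated counts were 13597538 to 20325075 in the Xenobot pools and 17533207 to 22225123 in the embryo pools. Genes annotated as rRNA took 26.4 to 36.9% of them in Xenobots and 27.1 to 40.7% in embryos. Levels are given as CPM (counts scaled to the depth of the library with TMM factors), and no level was compared between genes, since CPM grows with transcript length. Marker lists matched the labels. The 21 muscle rows summed to 27.7 to 279 CPM in Xenobots against 6873 to 10787 CPM in embryos, and the 35 epidermis rows to 14896 to 16041 CPM in Xenobots against 3088 to 4004 CPM in embryos.

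The comparison asked which Sox genes the ectodermal explant expressed at another level than the whole embryo. Most of the family was lower in Xenobots, the largest differences being in sox1, sox2, sox8 and sox10, while the SoxF gene sox7 alone was higher by both thresholds. Of the 31 Sox genes that passed the filter on low counts, 2 were called higher and 14 lower at a limma adjusted p under 0.05 with a log2 fold change above 2 or below -2. Over all 26752 tested genes the same thresholds called 5.75% higher and 20.5% lower. The median log2 fold change was -1.61 over the 31 Sox genes and -0.07 over all tested genes. At the adjusted p alone, 5 Sox genes were higher and 22 lower (29.6% and 36.2% of all tested genes), and with scaling to total counts 2 were higher and 22 lower. The CPM of the groups did not overlap for 28 of the 31 (71.7% of all tested genes), all Xenobot pools lying below all embryo pools in 23 (38.9% of all tested genes). Of these, sox1, sox2.L, sox14.L, sox10 and sox8.L passed the filter through the embryo pools alone. For them, and for such genes among all tested genes, the filter largely set this order. In a bulk sample, fewer cells of a type and less RNA per cell cannot be told apart.

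**Figure D1:**
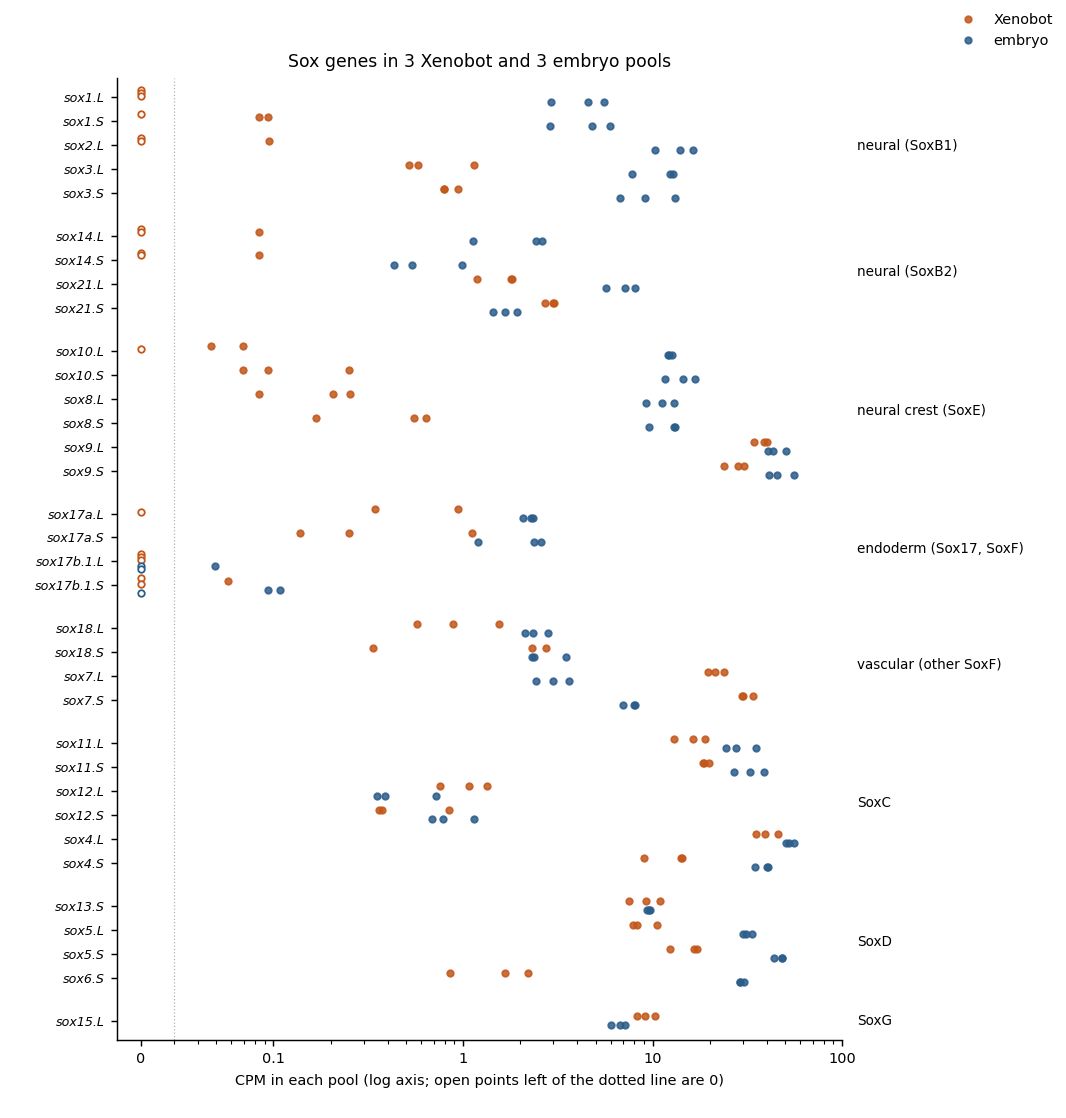
CPM of each of the 34 Sox genes (rows, ordered by subgroup) in each of the 3 Xenobot pools (orange, upper points of a row) and 3 embryo pools (blue, lower points), on a log axis with values of 0 drawn open at the left. The Xenobot points of sox1, sox2, sox14 and sox10 lie at or below 0.252 CPM, whereas those of sox7 lie above every embryo point of the same gene.

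Summed over the family, Sox genes reached 276, 258 and 253 CPM in the Xenobot pools, against 545, 494 and 445 CPM in the embryo pools. The sum was therefore lower in every Xenobot pool, and the subgroups differed unevenly. Of 8 tested neural genes (SoxB1 and SoxB2), 7 were called lower, with a median log2 fold change of -4.65, or -3.68 when genes at the count floor enter at their bound. The 6 neural crest genes (SoxE) gave 4 lower calls and a median of -5.21, and the 2 tested endoderm genes 2 lower calls and a median of -2.62. The 4 vascular genes (the other SoxF genes) gave 2 higher calls. None of the 6 SoxC genes was called, 1 of the 4 SoxD genes was called lower, and the lone SoxG gene was not called. These subgroup medians rest on few genes, and most of those are pairs of homeologs. Among the lower calls, sox1, sox2.L, sox14.L, sox10 and sox8.L passed the filter through the embryo pools alone, which largely set their direction.

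**Figure D2:**
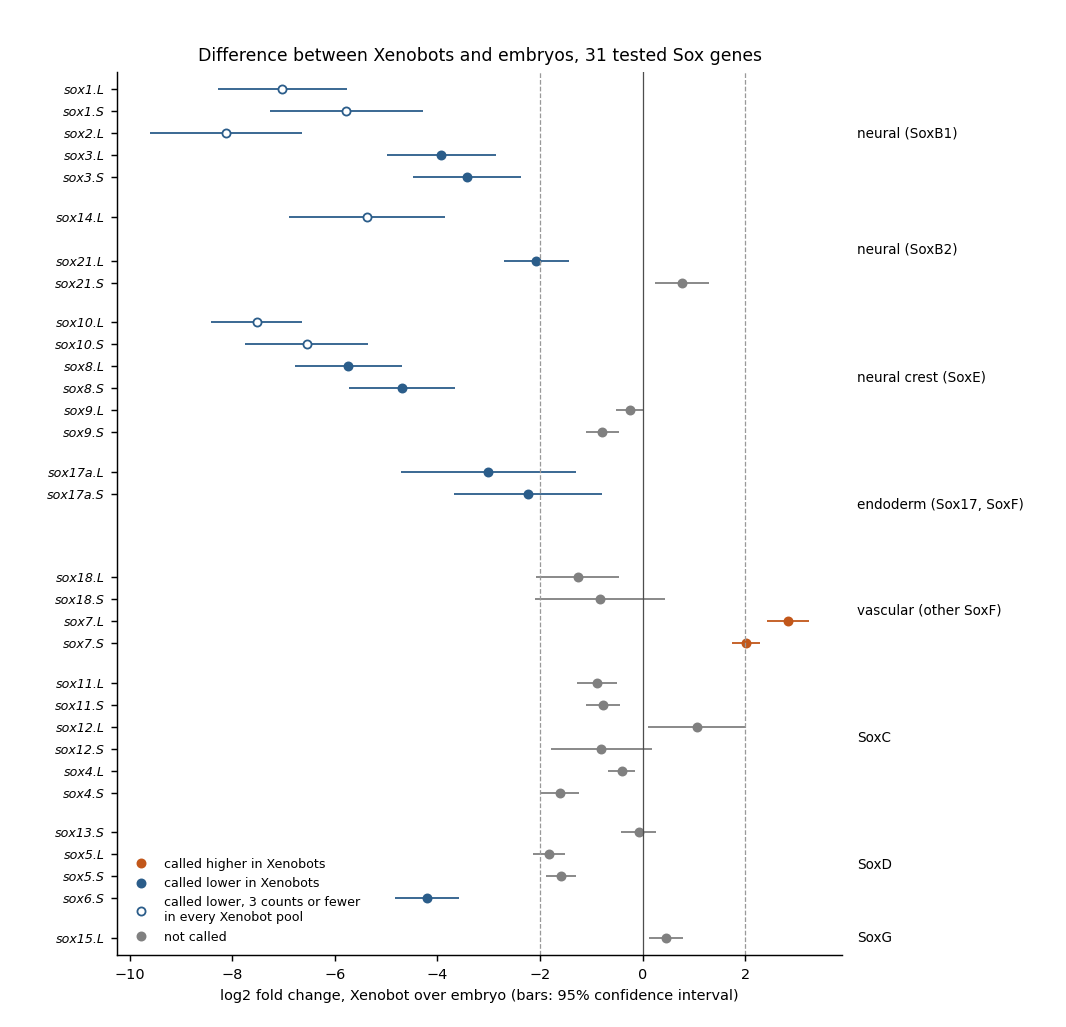
Log2 fold change of Xenobot over embryo for the 31 tested Sox genes, by subgroup, with 95% confidence intervals as bars and dashed lines at the thresholds of -2 and 2. Calls lower (blue; open where every Xenobot pool had 3 counts or fewer) run from -8.11 for sox2.L to -2.07 for sox21.L, and the calls higher (orange) are sox7.L and sox7.S.

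The SoxB1 genes were all lower in Xenobots. The gene sox2.L (chromosome 5L, 114959594 to 114960783), a regulator of neural progenitors and of pluripotent cells, stood at 0, 0 and 0.0949 CPM in the Xenobot pools, against 16.3, 14.0 and 10.3 CPM in the embryo pools. No Xenobot pool had more than 1.13 estimated counts, so that only a bound could be given. Against a floor of 3 counts per pool, sox2.L was at least 67.7-fold lower (limma adjusted p = 4.12e-06). Such a bound divides the embryo mean by the level of 3 counts and takes no account of the spread between pools. Where a Xenobot pool came near 3 counts, it does not fully cover counting error either. It is not a confidence limit.

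The homeologs of sox1, which marks neural tissue as the neural plate forms, behaved alike. For sox1.L the CPM was 0, 0 and 0 in Xenobots against 5.51, 4.57 and 2.93 in embryos, and sox1.S had 0, 0.0939 and 0.0839 CPM in Xenobots against 5.99, 4.79 and 2.89 CPM in embryos. Neither copy exceeded 2 counts in any Xenobot pool, and both were called lower, by at least 21.7-fold for sox1.L. Against the floor of 3 counts sox1.S was 22.8-fold lower (-4.51 on the log2 scale). The confidence interval of its log2 fold change, -7.27 to -4.28, reached smaller differences.

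Unlike these, sox3, which in the frog is expressed in early ectoderm and then in neural progenitors, remained measurable in every Xenobot pool. The CPM of sox3.L was 0.576, 0.517 and 1.14 in Xenobots against 12.4, 12.9 and 7.77 in embryos. The level of sox3.S was 0.936, 0.799 and 0.789 CPM in Xenobots against 13.1, 9.14 and 6.74 CPM in embryos. All Xenobot values lay below all embryo values for both copies, which averaged 6.76% (sox3.L) and 8.70% (sox3.S) of their embryo level. The log2 fold changes were -3.93 for sox3.L (SE 0.47, limma adjusted p = 4.82e-05) and -3.43 for sox3.S (SE 0.47, limma adjusted p = 1.17e-04).

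The SoxB2 genes encode repressors that oppose SoxB1 proteins in neural progenitors. Of these, sox14.L, known from interneurons, was lower in Xenobots by at least 10.3-fold, at 0, 0 and 0.0839 CPM in Xenobots against 2.61, 2.43 and 1.13 CPM in embryos. Its homeolog sox14.S did not pass the filter and reached 1 count in 1 Xenobot pool, against 8 to 21.1 counts in the embryo pools, a level at least 3.27-fold lower with no test.

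The homeologs of sox21 went in opposite directions. The gene sox21.L (chromosome 2L, 127735398 to 127738176) stood at 1.82, 1.80 and 1.18 CPM in Xenobots against 8.10, 7.16 and 5.66 CPM in embryos. The other copy, sox21.S (chromosome 2S, 113315256 to 113316044), stood at 3.00, 2.71 and 3.01 CPM in Xenobots against 1.68, 1.44 and 1.92 CPM in embryos. The groups did not overlap for either copy, with sox21.L lower and sox21.S higher in Xenobots. Their log2 fold changes were -2.07 for sox21.L (SE 0.28, limma adjusted p = 1.18e-04) and 0.77 for sox21.S (SE 0.24, limma adjusted p = 0.0162). The difference of sox21.S did not pass the adjusted p in 3 alternatives, total-count scaling, limma treat and leaving out embryo replicate 2. The call for sox21.L lay near the fold threshold and was lost without Xenobot replicate 3 (-1.91) or without embryo replicate 1 (-1.94), and summed over both copies sox21 had a log2 fold change of -0.94.

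Within the embryo group, 7 of the 8 tested SoxB genes were lowest in pool 3, sox21.S being the exception, and over the whole family this held for 21 of the 31 tested genes. The sums of the list of neural partners moved the same way, at 419, 407 and 331 CPM in embryo pools 1, 2 and 3. How many of all tested genes were lowest in pool 3 was not counted, so the order is not read as a trait of Sox genes. The spread between the embryo pools is part of the standard errors above. For the tested SoxB genes and this list sum every Xenobot pool lay outside it, though sox1, sox2.L and sox14.L passed the filter through the embryo pools alone.

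The SoxE genes were split. The gene sox10.L (chromosome 4L, 120280591 to 120289535), which serves crest cells and later glia and pigment cells, had 0.0687, 0.0470 and 0 CPM in Xenobots against 12.7, 12.2 and 12.1 CPM in embryos. For sox10.S the CPM was 0.0687, 0.0939 and 0.252 in Xenobots against 16.7, 14.5 and 11.6 in embryos. With at most 3 counts in any Xenobot pool, sox10.L was at least 61.8-fold lower (limma adjusted p = 5.16e-07). Against the floor of 3 counts sox10.S was 71.6-fold lower (-6.16 on the log2 scale, limma adjusted p = 4.10e-06). The confidence interval of its log2 fold change, -7.74 to -5.35, reached smaller differences. The related gene sox8, active in early crest, was lower by 5.74 (sox8.L) and 4.69 (sox8.S) on the log2 scale. It had 0.206, 0.254 and 0.0839 CPM for sox8.L in Xenobots against 12.9, 9.27 and 11.2 CPM in embryos, and 0.550, 0.639 and 0.168 CPM for sox8.S in Xenobots against 12.9, 13.1 and 9.58 CPM in embryos.

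In contrast, sox9 kept most of its embryo level. The protein directs cartilage formation and also acts in crest, in the otic placode and in several epithelia. The CPM of sox9.L (chromosome 9_10L, 21853266 to 21875574) was 38.5, 34.3 and 40.2 in Xenobots against 50.7, 43.0 and 40.7 in embryos. The CPM of sox9.S (chromosome 9_10S, 19840590 to 19846183) was 23.7, 28.2 and 30.3 in Xenobots against 55.6, 45.3 and 41.1 in embryos. The groups nearly touched for sox9.L and were clearly apart for sox9.S. The log2 fold change of sox9.L was -0.25 (95% confidence interval -0.52 to 0.01, limma adjusted p = 0.0847), and that of sox9.S was -0.78 (SE 0.14, limma adjusted p = 7.40e-04).

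Among the SoxF genes, sox17a, an endoderm determinant that in mammals also acts in arterial endothelium, was lower in Xenobots and varied between their pools. The level of sox17a.L (chromosome 6L, 122899051 to 122901477) was 0.344, 0.939 and 0 CPM in Xenobots against 2.29, 2.33 and 2.06 CPM in embryos, and that of sox17a.S was 0.137, 1.12 and 0.252 CPM in Xenobots against 2.57, 2.38 and 1.19 CPM in embryos. Xenobot pool 2 was the highest for both copies, yet it stayed below the lowest embryo pool. The log2 fold changes were -3.00 for sox17a.L (SE 0.76, limma adjusted p = 0.00568) and -2.23 for sox17a.S (SE 0.64, limma adjusted p = 0.0117). Single pools decided these calls, since without Xenobot replicate 3 sox17a.L had -1.83, and without Xenobot replicate 1 sox17a.S had -1.62 with a limma adjusted p of 0.0568. The call of sox17a.S was also lost with edgeR (-1.84) and DESeq2 (-1.97). The neighbouring genes sox17b.1.L and sox17b.1.S were not tested, with at most 1.22 counts in any Xenobot pool and 2 counts in any embryo pool.

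The vascular SoxF genes differed from sox17a and from each other. The gene sox7.L (chromosome 5L, 162880001 to 162885427), known from endothelial and heart development, stood at 23.9, 21.3 and 19.7 CPM in Xenobots against 2.99, 2.43 and 3.63 CPM in embryos. Its homeolog sox7.S (chromosome 5S, 137608145 to 137613123) stood at 33.8, 29.6 and 29.8 CPM in Xenobots against 6.97, 7.95 and 8.09 CPM in embryos. Every Xenobot pool was above every embryo pool for both copies, the ratio of mean CPM being 716% for sox7.L and 405% for sox7.S. The log2 fold changes were 2.83 for sox7.L (SE 0.19, limma adjusted p = 1.27e-06) and 2.02 for sox7.S (SE 0.12, limma adjusted p = 9.80e-07). The value of sox7.S stood at the fold threshold, and its call was lost in 9 alternatives, with values down to 1.84, among them leaving out Xenobot replicate 1 (1.96) or embryo replicate 1 (1.95).

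The other vascular gene, sox18, a regulator of blood and lymphatic vessel formation, showed no such increase. The CPM of sox18.L was 0.883, 1.55 and 0.572 in Xenobots against 2.81, 2.34 and 2.12 in embryos, and that of sox18.S was 2.32, 2.73 and 0.336 in Xenobots against 3.49, 2.30 and 2.37 in embryos. The groups overlapped for sox18.S, where Xenobot pool 3 alone was far below the embryos. The log2 fold changes were -1.27 for sox18.L (SE 0.36, limma adjusted p = 0.0107) and -0.83 for sox18.S (SE 0.56, limma adjusted p = 0.217).

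Across the Xenobot pools, the summed copies of sox17a and of sox18 stood in the same order as vessel markers, and those of sox7 did not. The 27 rows of the endothelium list summed to 87.7, 109 and 24.2 CPM in Xenobot pools 1, 2 and 3, against 304, 307 and 292 CPM in the embryo pools, which is 29.1, 36.4 and 8.05% of the embryo mean. Both copies of sox18 together came to 62.2, 83.0 and 17.6% of the embryo mean in these Xenobot pools, and both of sox17a to 11.3, 48.1 and 5.89%. In each of these pool 2 gave the highest and pool 3 the lowest value, as in the muscle list at 134, 279 and 27.7 CPM and in the endoderm list at 23.7, 30.8 and 21.3 CPM. Of the single copies, sox17a.S was lowest in pool 1. The order of sox17a in pools 1 and 3 rests on few counts, 5 and 0 for sox17a.L and 2 and 3 for sox17a.S. Total counts had the same order, at 15599300, 20325075 and 13597538 in Xenobot pools 1, 2 and 3. The rRNA shares had the reverse order, at 36.2, 26.4 and 36.9%. An order shared over only 3 pools says little. The sums of sox7 stayed at 540, 476 and 463% of the embryo mean. Whether carried-over cells of vessels or endoderm, library depth or rRNA share had a part in these SoxF values was not tested.

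**Figure D3:**
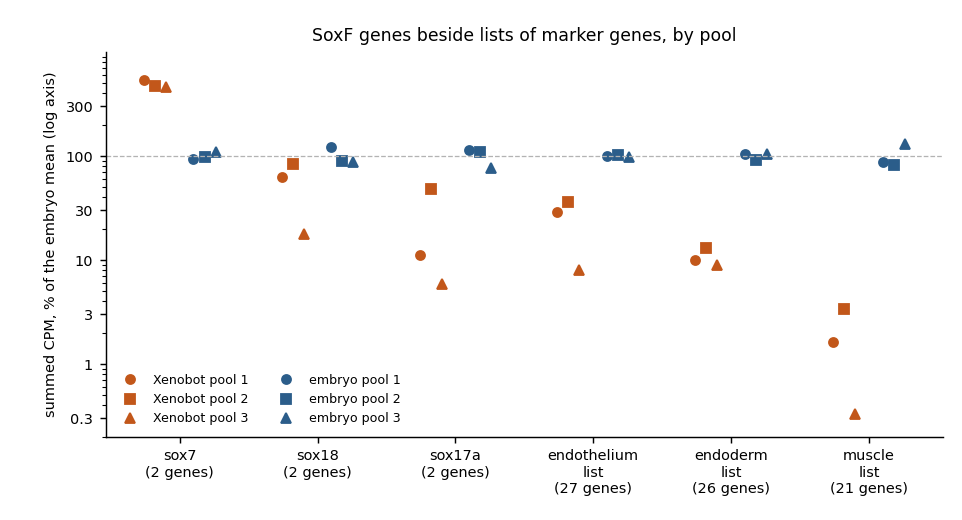
Summed CPM of both copies of sox7, sox18 and sox17a and of the endothelium, endoderm and muscle lists, as a percentage of the embryo mean on a log axis, in Xenobot pools (orange) and embryo pools (blue), with a marker shape for each pool. The Xenobot points of sox18 (17.6 to 83.0%) and sox17a (5.89 to 48.1%) spread in the same order as the endothelium list (8.05 to 36.4%), while sox7 lies at 463 to 540%.

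The SoxC genes changed less. The CPM of sox4.L (chromosome 6L, 100511919 to 100515776) was 46.1, 39.4 and 35.1 in Xenobots against 50.7, 55.6 and 52.7 in embryos, and that of sox4.S (chromosome 6S, 81628505 to 81632309) was 14.2, 14.3 and 8.96 in Xenobots against 40.4, 40.1 and 34.7 in embryos. Both copies of this regulator of neuronal and progenitor genes were lower in Xenobots, sox4.S by more. The log2 fold changes were -0.40 for sox4.L (SE 0.12, limma adjusted p = 0.0119) and -1.61 for sox4.S (SE 0.17, limma adjusted p = 1.85e-05).

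The neuronal differentiation gene sox11 had for sox11.S 19.8, 18.5 and 18.7 CPM in Xenobots against 38.8, 32.6 and 26.8 CPM in embryos, and sox11.L ran from 12.9 to 18.9 CPM in Xenobots against 24.4 to 35.2 CPM in embryos. Both copies were thus lower in all Xenobot pools, by log2 fold changes of -0.88 (sox11.L, limma adjusted p = 0.00140) and -0.77 (sox11.S, limma adjusted p = 9.67e-04).

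The third SoxC gene, sox12, was near the detection filter. The CPM of sox12.L was 1.08, 0.752 and 1.34 in Xenobots against 0.722, 0.352 and 0.386 in embryos, from 6.51 to 16.0 counts a pool. The CPM of sox12.S was 0.362, 0.376 and 0.839 in Xenobots against 1.15, 0.784 and 0.684 in embryos. The groups overlapped for sox12.S. The log2 fold change of sox12.L was 1.06 (SE 0.42, limma adjusted p = 0.0486), a call at the adjusted p that 12 of its alternatives lost, and that of sox12.S was -0.81 (SE 0.44, limma adjusted p = 0.132).

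Among the SoxD genes, which aid Sox9 in cartilage and act in other lineages, sox5 and sox6 were lower in Xenobots. The CPM of sox5.L was 10.6, 8.32 and 7.87 in Xenobots against 33.3, 29.9 and 31.0 in embryos, and that of sox5.S was 17.2, 16.6 and 12.4 in Xenobots against 48.1, 48.1 and 43.7 in embryos. The Xenobot pools thus held 28.5% (sox5.L) and 33.0% (sox5.S) of the mean embryo level, and the log2 fold change of sox5.L was -1.82 (SE 0.14, limma adjusted p = 2.54e-06) and that of sox5.S -1.59 (SE 0.13, limma adjusted p = 4.95e-06), both short of the fold threshold. The gene sox6.S (chromosome 4S, 22383259 to 22612357), which in mammals also acts in muscle and red blood cells, stood at 1.67, 2.20 and 0.855 CPM in Xenobots against 30.5, 29.0 and 28.8 CPM in embryos. It was called lower, at a log2 value of Xenobot over embryo of -4.20 (SE 0.28, limma adjusted p = 1.33e-06). Here too Xenobot pool 2 was the highest and pool 3 the lowest. This was the order of the muscle list, but also of the endothelium and endoderm lists and of total counts. The part of muscle cells in these values was not tested.

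The remaining SoxD gene, sox13.S, showed no detectable difference, at 7.49, 9.21 and 11.0 CPM in Xenobots against 9.35, 9.58 and 9.68 CPM in embryos. Its log2 fold change was -0.07, with a 95% confidence interval of -0.41 to 0.27 and a limma adjusted p of 0.687. The lone SoxG gene, sox15.L, listed by RefSeq with the older frog name soxd and known in Xenopus as an early neuralizing factor of the ectoderm, stood at 10.2, 8.27 and 9.07 CPM in Xenobots against 7.15, 6.01 and 6.74 CPM in embryos. Every Xenobot pool was above every embryo pool, by 0.45 on the log2 scale (SE 0.15, limma adjusted p = 0.0223), a difference that did not pass the adjusted p in 8 alternatives.

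The homeologs were compared within each pool, which cancels the scaling of libraries. For 13 Sox genes both copies were tested, and the difference of L to S changed between Xenobots and embryos in 5 of them at a limma adjusted p under 0.05 over all 6667 homeolog pairs of the table. This is no more frequent than in the rest, since 44.7% of all pairs passed. The call was the same for both copies in 12 of 13 Sox pairs and in 5926 of all 6667 pairs. Homeologs share sequence and RSEM divides reads that fit both, so that a copy on its own is measured with less certainty than the sum of both.

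Of the 5 pairs, sox21 changed most. Its L copy made up 37.7, 39.9 and 28.2% of the counts of the pair in Xenobots against 82.9, 83.2 and 74.6% in embryos. The L share was thus lower in every Xenobot pool than in any embryo pool. The copies can differ in length, so the shares are compared between the groups and not between the copies. The log2 ratio of L to S was lower in Xenobots by 2.83 (difference -2.83, SE 0.31, limma adjusted p = 4.34e-05). In the other 4 pairs the L share was higher in Xenobots. It averaged 67.7% ± 6.74 in Xenobots and 35.2% ± 3.87 in embryos for sox12 (SD, n = 3), a difference in the log2 ratio of 1.88 (SE 0.40, limma adjusted p = 0.00306).

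For sox4 the L share averaged 76.5% ± 3.13 in Xenobots and 58.0% ± 2.33 in embryos, a difference of 1.22 in the log2 ratio (SE 0.14, limma adjusted p = 6.22e-05). For sox7 it averaged 41.0% ± 1.09 in Xenobots and 28.2% ± 4.10 in embryos, a difference of 0.82 (SE 0.16, limma adjusted p = 0.00227), so that the L copy rose more. For sox9 the share was 57.9% ± 3.63 in Xenobots and 48.7% ± 1.04 in embryos, a difference of 0.53 (SE 0.12, limma adjusted p = 0.00536).

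In the other 8 pairs the difference did not pass. The estimates ran from -1.25 for sox1 (limma adjusted p = 0.0628) and -1.03 for sox8 (0.123) to -0.11 for sox11, where the 95% confidence interval was -0.42 to 0.19. For sox1, sox8, sox10 and sox17a at least 1 Xenobot pool held fewer than 5 counts of both copies together, which leaves their share undetermined at this depth. The genes sox2, sox6, sox13 and sox15 were represented by 1 copy among the rows analysed.

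**Figure D4:**
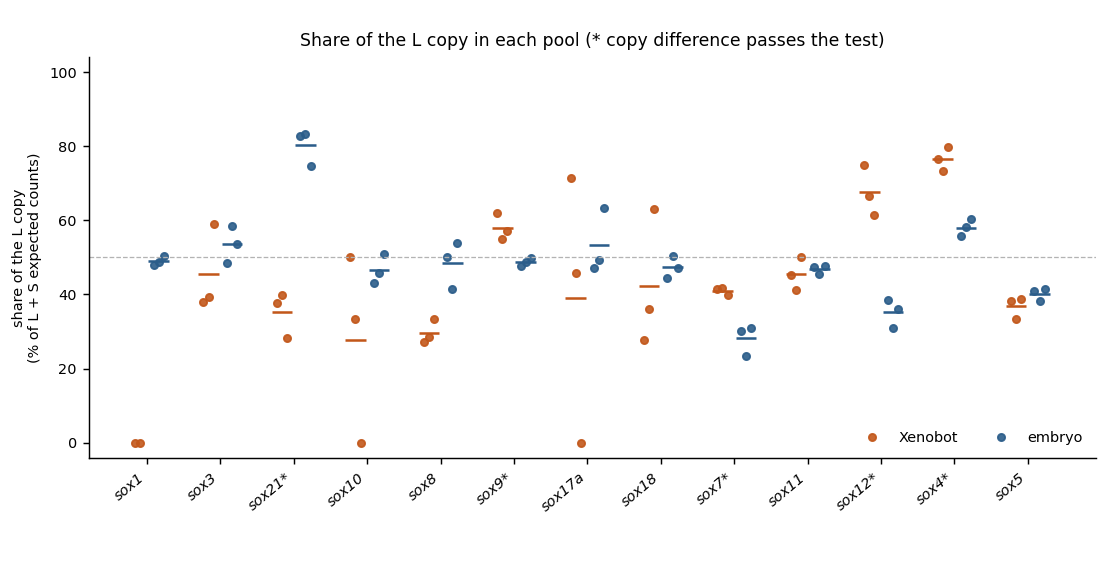
Share of the L copy in the L plus S counts (percent) of 13 Sox gene pairs, in each Xenobot pool (orange) and embryo pool (blue), with a line at the mean and an asterisk where the copy difference passed the test. The L share of sox21 was 28.2 to 39.9% in Xenobots and 74.6 to 83.2% in embryos. The ranges overlap for sox5 (33.3 to 38.9% and 38.3 to 41.5%) and sox11 (41.1 to 50.2% and 45.7 to 47.7%).

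The Sox genes were set beside lists of genes that work with them or mark the tissues they serve. Over all tested genes, 5.75% were called higher and 20.5% lower, and 29.6% and 36.2% at the adjusted p alone. Tested rows with 3 counts or fewer in every Xenobot pool passed the filter through the embryo pools alone, which largely set their direction. They were 22 of 46 neural partner rows, 9 of 20 neuron rows and 10 of 21 endoderm rows, against 2190 of all 26752 tested genes. Cartilage and notochord had 6 of 18 such rows, crest specifiers 5 of 29 and placodes 4 of 21. Muscle had 3 of 21, endothelium 3 of 26, glia and pigment cells 2 of 17 and epidermis 1 of 32. Among genes that share neural progenitors with SoxB proteins, 36 of 46 tested rows were called lower and 0 higher (38 were lower at the adjusted p alone), with a median log2 fold change of -4.30, or -3.32 with the 22 rows at the count floor set to their bound. The glial fatty acid binding gene fabp7.L averaged 0.0509 ± 0.0447 CPM in Xenobots and 96.4 ± 13.9 CPM in embryos (SD, n = 3), at least 483-fold lower. The neural plate factor zic1.S and the eye and forebrain factor pax6.L, with no count in any Xenobot pool, were at least 46.6-fold and 42.9-fold lower. Members that were not called included both copies of otx2 and pou3f1, at log2 fold changes from -0.39 to 0.22. Markers of differentiated neurons gave 19 lower calls of 20, among them stmn2.S, tubb3.L and stmn2.L, cytoskeletal genes of neurons, each at least 210-fold lower. The remaining row, syt1.L, which encodes a calcium sensor of vesicle release, went the other way, with 77.8 ± 3.92 CPM in Xenobots and 21.5 ± 1.12 CPM in embryos (SD, n = 3) and a log2 fold change of 1.85, short of the fold threshold.

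Neural crest specifiers did not move as one. The calls were 12 lower and 2 higher among 29 tested rows, and the median log2 fold change was -0.54. The crest and neural fold factors pax3.L (at least 31.1-fold), foxd3.L (at least 9.07-fold) and pax3.S (log2 fold change -5.55) were among the lower ones. The higher ones were both copies of msx2, a BMP-responsive homeobox gene, at 2.57 and 2.80, and tfap2a, which serves epidermis as well as crest, had 0.99 (tfap2a.L) and 1.20 (tfap2a.S). The crest gene snai2 had -0.11 (snai2.L, limma adjusted p = 0.661) and -0.39 (snai2.S, limma adjusted p = 0.138). Of the genes of glia and pigment cells, which SoxE proteins serve, 7 of 17 were called lower and 1 higher, with a median of -0.20. At the adjusted p alone, 7 were lower and 6 higher. The melanin synthesis genes tyrp1.L (-8.87) and dct.L and the melanosome gene pmel.L (-6.44) were among the lower ones. Against the floor of 3 counts dct.L was 128-fold lower (-7.00 on the log2 scale). Its fitted log2 fold change was -6.98, with a confidence interval of -8.09 to -5.87, so 128-fold is not a minimum. The row called higher was mpz.L (2.83), with 12, 15 and 14 counts in Xenobots against 1, 4 and 2 in embryos. It passed the filter through the Xenobot pools alone, which largely set its direction. Its homeolog mpz.S, not tested, had 1, 0 and 0 counts in Xenobots against 4, 9 and 7 in embryos. Both erbb3.L (1.30) and erbb3.S (1.79) were higher but short of the fold threshold.

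Cartilage and notochord genes, which include Sox9 targets, were lower, where sox9.L averaged 84.0% and sox9.S 57.9% of the embryo level. Of 18 tested rows 16 were called lower, with a median of -4.44, or -3.85 with rows at the count floor set to their bound. The collagen IX gene col9a2.S was at least 513-fold lower, col9a2.L had a log2 fold change of -8.63 and the cartilage matrix gene matn4.L one of -8.02. The collagen II gene averaged 66.4 ± 34.4 CPM in Xenobots and 666 ± 20.5 CPM in embryos for col2a1.L (SD, n = 3), a log2 fold change of -3.44. The 2 rows not called were col11a1.L (-1.14) and col11a1.S (-0.84), which encode a fibrillar collagen chain.

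Genes of the sensory placodes, in which SoxB1 and SoxE genes are active too, gave 11 lower and 2 higher calls of 21. The lens gene pitx3.L and the otic gene pax8.L had no count in any Xenobot pool and were at least 26.6-fold and 14.5-fold lower. Both copies of dlx3, which acts in non-neural ectoderm and epidermis, were higher, at 2.51 and 3.03.

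Endoderm markers, the tissue of sox17a, gave 18 lower calls of 21 and a median of -5.71, or -4.06 with rows at the count floor set to their bound. The endoderm and heart factors gata6.L (-7.25) and gata4.L (at least 46.0-fold lower) and the pancreas factor pdx1.L (at least 18.0-fold lower) were among them. Endothelium markers, the tissue of sox18 and sox7, gave 13 lower and 0 higher calls of 26, with a median of -2.17, and 25 of the 26 were lower at the adjusted p alone. The blood vessel and blood factors tal1.S (at least 23.9-fold lower) and lmo2.S (-5.28) and the VEGF receptor flt1.S were among them. Against the floor of 3 counts flt1.S was 17.1-fold lower (-4.10 on the log2 scale). The confidence interval of its log2 fold change, -6.20 to -3.83, reached smaller differences. Both copies of sox7 were higher, whereas nearly all endothelium markers were lower. Which cells carried the sox7 RNA was not tested. All 21 muscle rows were called lower, among them tnni2.L (-8.06) and casq1.S (-8.02), which serve contraction, and the myogenic factor myog.S (at least 40.5-fold lower).

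The lists of epidermis and of its multiciliated cells and ionocytes went the other way. Epidermis genes gave 11 higher and 3 lower calls among 32 tested rows, and their median was 1.33. The largest differences in that list were lower, in the keratin genes krt12.1.L (at least 16.0-fold) and krt18.1.S (-4.74), followed by a higher keratin, krt12.4.L (3.20). Genes of multiciliated cells gave 11 higher and 1 lower calls of 21, with the tektins tekt2.L (3.36) and tekt1.S (3.11) and the axonemal dynein dnah9.S (3.18) in front. Ionocyte genes gave 4 higher and 0 lower calls of 16, with the proton pump subunit atp6v1b1.L (3.27) and the ionocyte factor foxi1 (2.58 for foxi1.S and 2.48 for foxi1.L). Next to these, sox7, sox21.S, sox15.L and sox12.L were the Sox genes higher at the adjusted p. This was lost in 12 alternatives for sox12.L, 8 for sox15.L, 3 for sox21.S and 1 for sox7.S. Summed over both copies, the log2 fold change was 2.29 for sox7, 0.13 for sox12 and -0.94 for sox21.

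Genes of partner proteins at Wnt targets and in repression formed the last lists. The 6 tested rows of the TCF/LEF factors, which carry an HMG box related to that of Sox proteins, had no call. Of these, 2 were higher and 4 lower at the adjusted p alone (29.6% and 36.2% of all tested genes), from 1.05 for lef1.L to -1.42 for tcf7l2.L. Of the 9 corepressor rows (Groucho and CtBP), 4 were called lower. The CtBP genes ctbp2.L (-3.74), ctbp1.S (-3.25) and ctbp2.S (-2.61) led them, and 8 of the 9 were lower at the adjusted p alone.

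**Figure D5:**
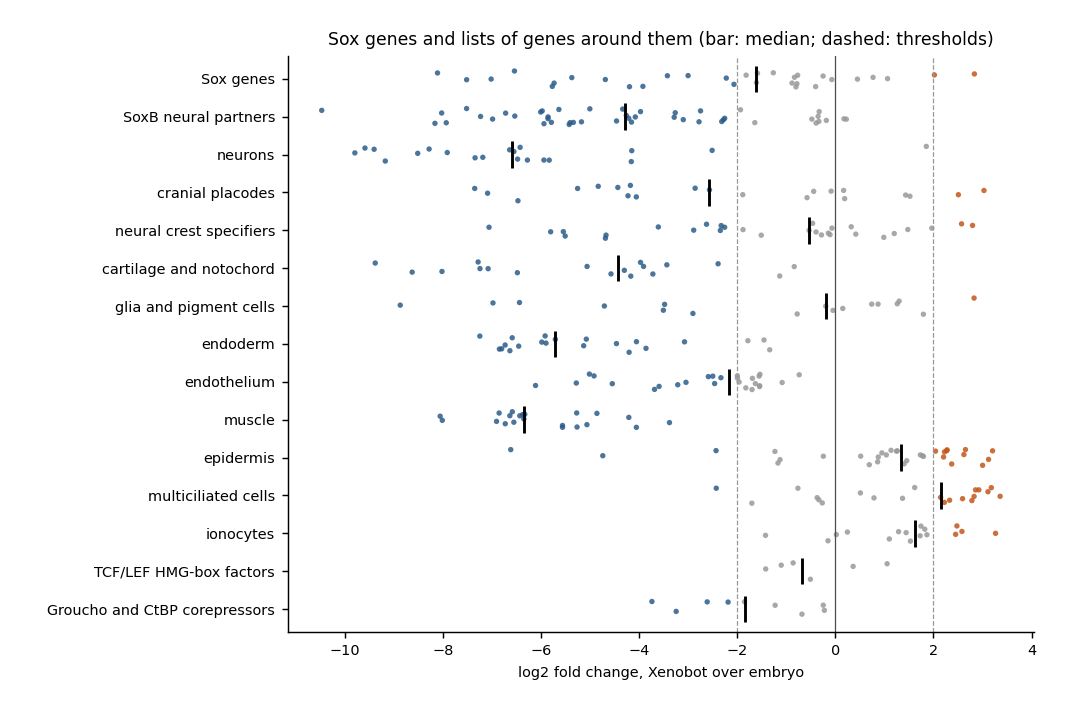
Log2 fold change of Xenobot over embryo for each tested member (point) of the Sox family and of 14 lists, with the median as a black bar, dashed lines at -2 and 2, and colors for calls higher (orange), lower (blue) and none (grey). The fitted Sox median of -1.61 lies between the neural, endoderm and muscle lists (-4.30 to -6.60) and the epidermis, multiciliated cell and ionocyte lists (1.33 to 2.14).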

How the data were processed

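The authors depleted rRNA, sequenced stranded total RNA as single 75-nucleotide reads and used fastp for trimming, STAR in 2 passes for alignment to version 10.1 of the NCBI X. laevis genome and RSEM for quantification. The main table holds the estimated counts that the authors obtained from RSEM for 42638 genes, as deposited and not scaled. The authors also deposited log2 CPM values of 28009 genes with surrogate-variable effects removed, used only as an alternative. Groups and replicate numbers come from the sample titles.

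Genes with CPM over 0.6 in at least 3 of the 6 libraries were kept (26752; the same rule is given for the 28009 genes), scaled by TMM in edgeR 4.0.16 and fitted by limma 3.58.1 after voom (R 4.3.3), with Benjamini-Hochberg adjustment over all tested genes. Unrounded counts entered voom. DESeq2 1.42.0 and the quasi-likelihood test of edgeR took rounded ones. The difference of L and S copies was tested with limma on the per-pool difference of log2 CPM. No exon lengths or sequences were at hand, so levels were not compared between genes and no sequence is shown. Positions come from the RefSeq table of the same assembly.

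The Sox members, the subgroups and the 14 lists, from general knowledge, were chosen with earlier results of these data known. Values of every pool were given by rule for Sox genes called higher, for the 2 of each subgroup with the largest mean CPM and for pairs whose copies differed. From each list up to 3 called members with the largest log2 fold change were named, and 1 such member is not reported here. Pool values of sox1, sox3.S, sox8, sox10, sox14.L, sox6.S, sox13.S and sox18, and other list members, were added after their values were seen. Alternatives were other tests, scalings, filters, a replicate block, the deposited adjusted values, 1 surrogate variable (sva 3.50.0), summed homeologs and each pool left out. The fits were tested on simulated data.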

Additional observations from a re-analysis of the deposited data

How the results depend on the processing

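The 14 lower calls among Sox genes came to 11 to 15 in the alternatives on single copies and to 12 to 14 with a pool left out, and the 2 higher calls to 1 with DESeq2, limma treat, RLE, total-count and upper-quartile scaling, a mean CPM above 1 and the deposited adjusted values, and to 1 to 2 with a pool left out, the call of sox7.S being the one lost. Of the 5 higher at the adjusted p alone, 3 were left with DESeq2, 1 with limma treat, 2 with total-count scaling, 3 with upper-quartile scaling, 3 with 1 surrogate variable and 2 to 5 with a pool left out (2 without embryo replicate 2, 3 without Xenobot replicate 1). Of the 22 lower, limma treat left 11. Summing homeologs left 18 tested Sox genes, with 1 higher and 8 lower calls, 2 higher and 13 lower at the adjusted p, and 17 higher and 93 lower calls over the lists, against 31 and 161 for single copies. The Sox pairs whose copies differed were 8, not 5, in the deposited adjusted values. The signs turned in those values for sox12.S (0.13), sox13.S (0.083) and sox18.S (0.32), none of them called. With a pool left out the range crossed 0 for sox13.S (-0.18 to 0.060), for the copy difference of sox11 (-0.24 to 0.031) and for that of sox17a (-1.58 to 0.18, positive without Xenobot replicate 3). The causes were not tested.

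The median of all tested genes was -0.07, against -0.21 with total-count scaling and -0.18 with upper-quartile scaling, and no Sox gene changed sign under either. Same-numbered pools deviated together only weakly (correlations of 0.0568, 0.0531 and 0.0105), so the numbers were not taken to pair them. With the replicate number as a block, 2 Sox genes were called higher and 14 lower, 4 and 22 at the adjusted p alone, and 5 pairs passed. Depth limits the genes at 3 counts or fewer, which were set against a floor of 3 counts. For sox1.S, sox10.S, dct.L, col9a2.S and flt1.S the confidence interval reached smaller differences than that floor gave.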
